A study of Leptinotarsa decemlineata with 6 samples.

Results

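The plant cell wall and carbohydrate digestion enzymes of the Colorado potato beetle (CPB, Leptinotarsa decemlineata) were examined in RNA from heads of CPBs fed with or without antibiotics. The members were chosen by annotation and level. A gene of the deposited transcriptome assembly was taken when its best NR or Swissprot match carried the name of a glucanase, cellulase, polygalacturonase, other pectin enzyme, xylanase, numbered glycoside hydrolase family, cellobiohydrolase, beta-glucosidase, myrosinase, lactase-phlorizin hydrolase, alpha-amylase, maltase or alpha-glucosidase, without the word chitin. It also had to reach a mean of at least 1 TPM (the deposited transcript level, scaled for transcript length and for the depth of the library) in at least 1 of the groups. This gave 62 members of the 216 genes with such a match and of 236706 assembled genes in all. The levels were therefore used in the choice. All 62 members reached the minimum in the Non-treatment group and 39 reached it in the Antibiotic group as well, so the other 23 entered only through the group in which they were higher.

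The series holds 6 libraries, 3 of each group, from CPBs labelled as wild type, with tissue head and cell type head olfactory cell. The study asked whether gut microbes bear on olfaction and feeding. In the Antibiotic group the beetles, adults in the study's methods, ate potato leaves soaked for a time in a mixture of tetracycline, penicillin, ofloxacin, ciprofloxacin and ampicillin. By the methods of the feeding test, the Non-treatment group ate leaves soaked without antibiotics, with Tween-20 as the wetting agent in both. The legend of the study's expression figure instead gives the Non-treatment diet as fresh leaves alone, so a matched soak is not certain for these libraries. Feeding lasted 3 days. The dose behind these libraries, the age of the beetles, and whether a library held 1 head or a pool were not given in the sources used here. Nothing in the labels says that the replicates came from separate rearings, so p-values measure the spread between these libraries, which may be technical.

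Leaves are built from pectin, cellulose and hemicelluloses, and leaf beetles carry genes for enzymes that cut each of them. Polygalacturonases (glycoside hydrolase family GH28) cut the pectin backbone, GH45 endoglucanases cut cellulose chains inside, xylanases cut xylan, and GH1 beta-glucosidases release glucose from the short ends or from plant defence glycosides. Alpha-amylase and maltase digest starch. In leaf beetles these enzymes are best known from the midgut, where they are secreted onto the chewed leaf. The list also took up alpha-glucosidases of GH31, some of which act inside the cell, and a beta-1,3-glucanase-like protein.

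Of the 62 members, 59 were matched through a protein name and 3 only through the name of a species. The latter are 2 unknown proteins whose best match is from the pink bollworm Pectinophora gossypiella and a homolog of the targeting protein for Xklp2, a mitotic spindle protein, whose Swissprot match is from a sea star of the genus Patiria with the species name pectinifera. By name and deposited Pfam domain the others were 24 GH1 enzymes, 11 GH28 polygalacturonases, 7 GH45 endoglucanases, 7 GH31 alpha-glucosidases, 3 GH48 proteins, 3 xylanases, 2 alpha-amylases, 1 maltase and 1 beta-1,3-glucanase. A glycoside hydrolase Pfam domain was listed for 49 members. The 3 xylanases, the GH1 gene TRINITY_DN53041_c0_g1 and the GH28 gene TRINITY_DN56143_c4_g1 had no Swissprot name and no Pfam domain. Their class rests on the NR name alone. The best NR match was a CPB protein for 21 members, and otherwise mostly one from Tribolium castaneum (11), Chrysomela lapponica (11) or Phyllotreta striolata (10). The 62 genes shared 47 NR matches and 57 assembly clusters, so several may be pieces or copies of 1 locus whose reads the assembly divided, and they are no independent measurements. No genome coordinates came with the assembled genes, so they are given by their assembly identifiers.

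The labelled tissue was checked first. The libraries held 25397497 to 33613953 estimated counts in the 5 whose counts were used, and 93718 to 111005 genes above 0 TPM. Across genes, Spearman's rho was 0.827 to 0.875 within groups and 0.598 to 0.723 between them. Of the eye genes, the rhodopsin TRINITY_DN52274_c7_g1 stood at 0.592, 0.639 and 0.252 TPM in Non-treatment replicates 1 to 3 and at 161, 212 and 138 TPM in the Antibiotic libraries. An arrestin homolog, TRINITY_DN59620_c3_g2, showed the same split, with 0.292, 0.553 and 0.552 TPM against 107, 125 and 89.7 TPM. The Non-treatment libraries, although labelled as head, thus had these defining eye transcripts close to 0. The study's supplementary comparison also gives its control another library code than the deposited Non-treatment libraries carry, and whether both are the same material is not given in the sources used here, which bears on every group difference that follows. The whole eye list of 49 genes summed to 145 to 167 TPM in Non-treatment and 485 to 654 TPM in Antibiotic libraries, and 10 of its genes were at 0 throughout each group. Of its 25 fitted genes 9 rose and 1 fell, with a median log2 difference of 0.31. Of all genes in the same limma fit, described below, 3.17% rose and 7.68% fell. The rhodopsin and the arrestin were singled out after their values were seen.

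Of the other tissue lists, the antenna sums alone did not overlap between the groups. The gut list of 157 genes (cathepsin L-like proteases and intestains, trypsins, aminopeptidase N, peritrophins) summed to 8439 to 20239 TPM in Non-treatment and 4764 to 8951 TPM in Antibiotic libraries, with 19 genes at 0 throughout each group. Of its 103 fitted genes, 32 fell and 2 rose with antibiotics. The testis and sperm list of 129 genes summed to 622 to 1539 TPM against 574 to 790 TPM, with 21 genes at 0 in all Non-treatment and 49 in all Antibiotic libraries, and 22 of its 51 fitted genes fell and 3 rose. A protamine, TRINITY_DN62402_c0_g1, was at 516, 408 and 81.8 TPM against 0 in all 3 Antibiotic libraries. The antenna list of 94 genes summed to 803 to 894 TPM in Non-treatment and 1279 to 1997 TPM in Antibiotic libraries, with 7 of 27 fitted genes higher and 1 lower. The brain list of 52 genes summed to 420 to 495 and 370 to 496 TPM, with 5 of 22 fitted genes higher and 4 lower. The part of these tissue differences in the values below was not tested, and by design the treatment and what the libraries hold cannot be told apart. In whole-tissue RNA, fewer cells of a type and less RNA per cell cannot be told apart either.

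**Figure D1:**
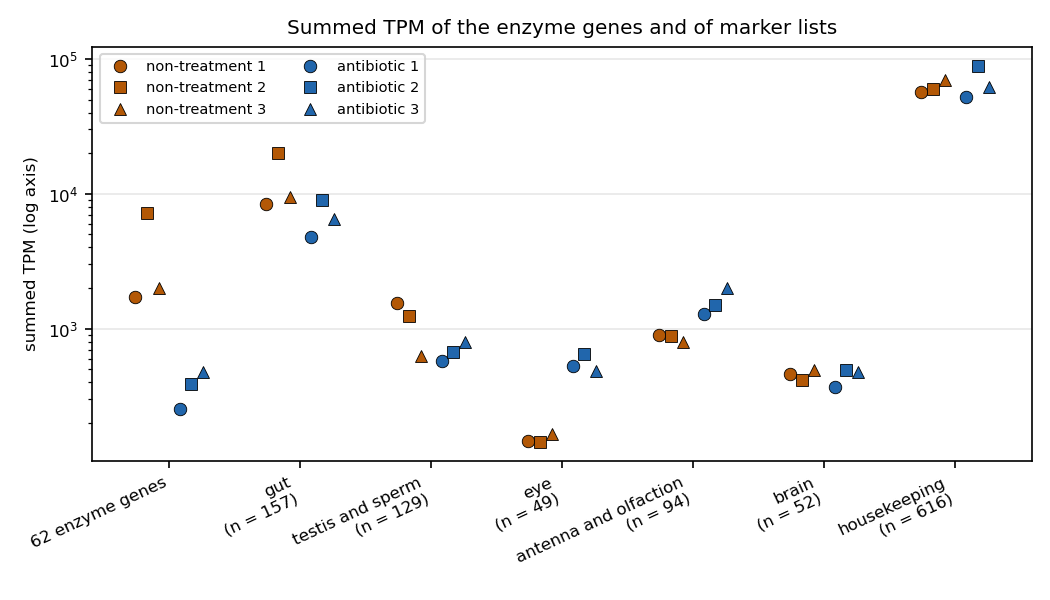
Summed TPM (log axis) of the members and of the marker lists for gut, testis and sperm, eye, antenna, brain and housekeeping (ribosomal proteins), with 1 point per library, orange for Non-treatment and blue for Antibiotic. The eye sum is 145 to 167 TPM in Non-treatment and 485 to 654 TPM in Antibiotic libraries, while the members' sum moves the other way.

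As a whole the members were lower in the Antibiotic group. Their sum includes the 7 GH31 genes, the beta-1,3-glucanase and the 3 species-name matches, whose names do not mark digestion. Together the 62 members took 1718, 7191 and 1999 TPM in Non-treatment replicates 1 to 3 and 254, 387 and 480 TPM in the Antibiotic replicates. The groups did not overlap, but Non-treatment replicate 2 stood far above its fellows. The means were 3636 ± 3082 and 374 ± 113 TPM (SD, n = 3), a 9.72-fold difference, or a log2 ratio of -3.28 that became -2.31 without Non-treatment replicate 2. The members made up 0.172%, 0.719% and 0.200% of all transcripts in Non-treatment and 0.0254%, 0.0387% and 0.0480% in Antibiotic libraries. In the Non-treatment group 41 members had a mean of at least 10 TPM and 8 of at least 100 TPM. In the Antibiotic group 13 reached 10 TPM and none reached 100 TPM.

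**Figure D2:**
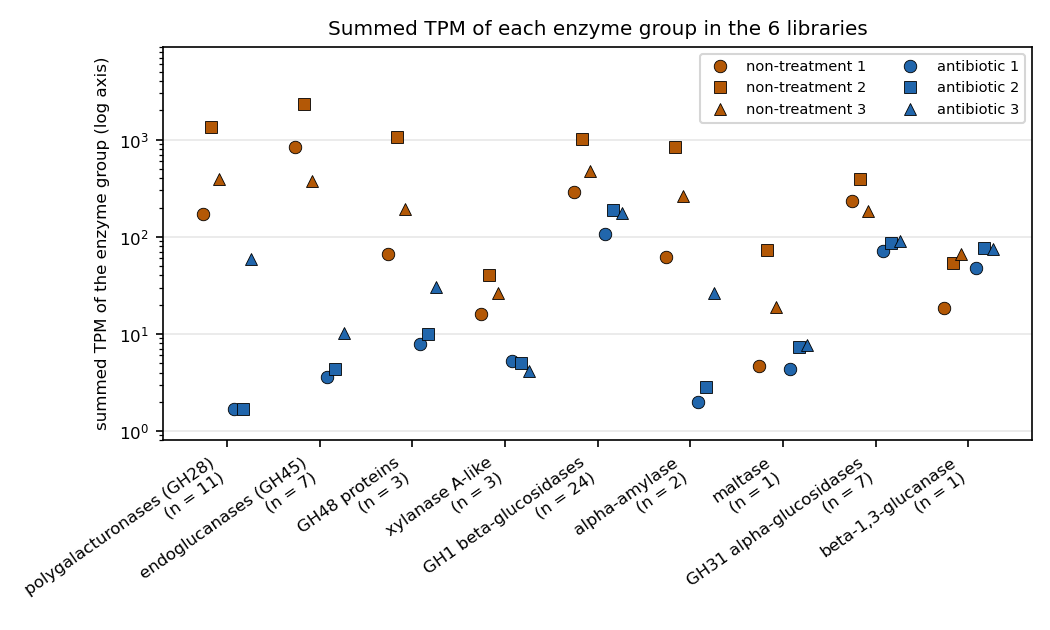
Summed TPM of each enzyme class (log axis), 1 point per library, for the Non-treatment and Antibiotic groups. The GH45 class spans 378.5 to 2341 TPM in Non-treatment and 3.60 to 10.3 TPM in Antibiotic libraries, while the beta-1,3-glucanase points overlap.

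The make-up of the set differed as well. GH45 endoglucanases gave 49.5%, 32.5% and 18.9% of the members' transcripts in Non-treatment replicates 1 to 3, but 1.42%, 1.12% and 2.15% in the Antibiotic replicates. The share of the GH1 enzymes ran the other way, at 16.7%, 14.0% and 23.6% against 42.2%, 49.4% and 36.3%. The single beta-1,3-glucanase went from 1.07%, 0.746% and 3.36% to 18.8%, 19.9% and 15.4%. None of these shares overlapped between the groups. The total they refer to was itself lower in the Antibiotic group, so a share can rise without a rise in level. The GH1 sum was 3.73-fold lower in the Antibiotic group, and the levels of the beta-1,3-glucanase overlapped.

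Each gene with a mean of at least 1 TPM over the 6 libraries was fitted with limma on log2(TPM + 1), so that the differences understate the change of low genes, and p-values were adjusted over all 28634 genes fitted (Benjamini-Hochberg). Of the 59 members in this fit, 27 (45.8%) were lower in the Antibiotic group at a limma adjusted p below 0.05. Of all genes fitted, 7.68% were. No member was higher, where 3.17% of all genes were. At an unadjusted p under 0.05 limma also gave 0 higher members and 45 lower ones, against 8.11% and 14.8% of all genes. With the counts of 5 libraries, edgeR and DESeq2 also called 0 members higher, with 0 at an unadjusted p under 0.05 (3 with edgeR without its count filter). For these count fits no share of all genes was taken. The median log2 difference was -2.25 over the 59 members and -0.06 over all genes fitted, and 54 of the 59 were negative. In 44 members (74.6%) every Non-treatment library was above every Antibiotic library, against 18.2% of all genes, and the reverse held for 0 members, against 10.5%. All 27 members called were among those 44. Many of the 27 had an Antibiotic mean under 1 TPM and met the level rule only through the Non-treatment group, where they were high. These were TRINITY_DN51704_c4_g2, TRINITY_DN55466_c1_g3, TRINITY_DN56710_c2_g1, TRINITY_DN58580_c2_g2, TRINITY_DN58540_c5_g2, TRINITY_DN61614_c2_g1, TRINITY_DN59846_c1_g4, TRINITY_DN62566_c3_g1, TRINITY_DN49839_c0_g1, TRINITY_DN56837_c1_g1, TRINITY_DN54866_c6_g1 and TRINITY_DN57850_c2_g1. The filter of the fit did not use the groups and was the same for all genes. Of the 27, 26 were above 0 TPM in at least 1 Antibiotic library, and their group means differed 2.21-fold to 2378-fold, with a median of 35.1-fold. These folds are of members already called, and many Antibiotic means were near 0, so the larger folds are imprecise. The largest is that of TRINITY_DN51704_c4_g2, at 0, 0 and 1.03 TPM in the Antibiotic libraries.

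How many members were called depended on the test and on single libraries. The count was 10 with edgeR (8 of them among the 27) and 29 with DESeq2 (21 among the 27), and it fell to 14 without Non-treatment replicate 3, 9 without Antibiotic replicate 1 and 12 without Antibiotic replicate 2. The share of all genes called was taken only for the main fit. These counts therefore show only how the number of members moved. Where a gene could be fitted, the call was kept with any 1 library left out in 9 of the 27. Of these 9, 6 were called under every alternative that fitted them: TRINITY_DN51704_c4_g2, TRINITY_DN55466_c1_g3, TRINITY_DN58540_c5_g2, TRINITY_DN52029_c5_g2, TRINITY_DN61856_c3_g2 and TRINITY_DN56837_c1_g1. Of these 6, all but TRINITY_DN52029_c5_g2 and TRINITY_DN61856_c3_g2 met the level rule only through the Non-treatment group.

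**Figure D3:**
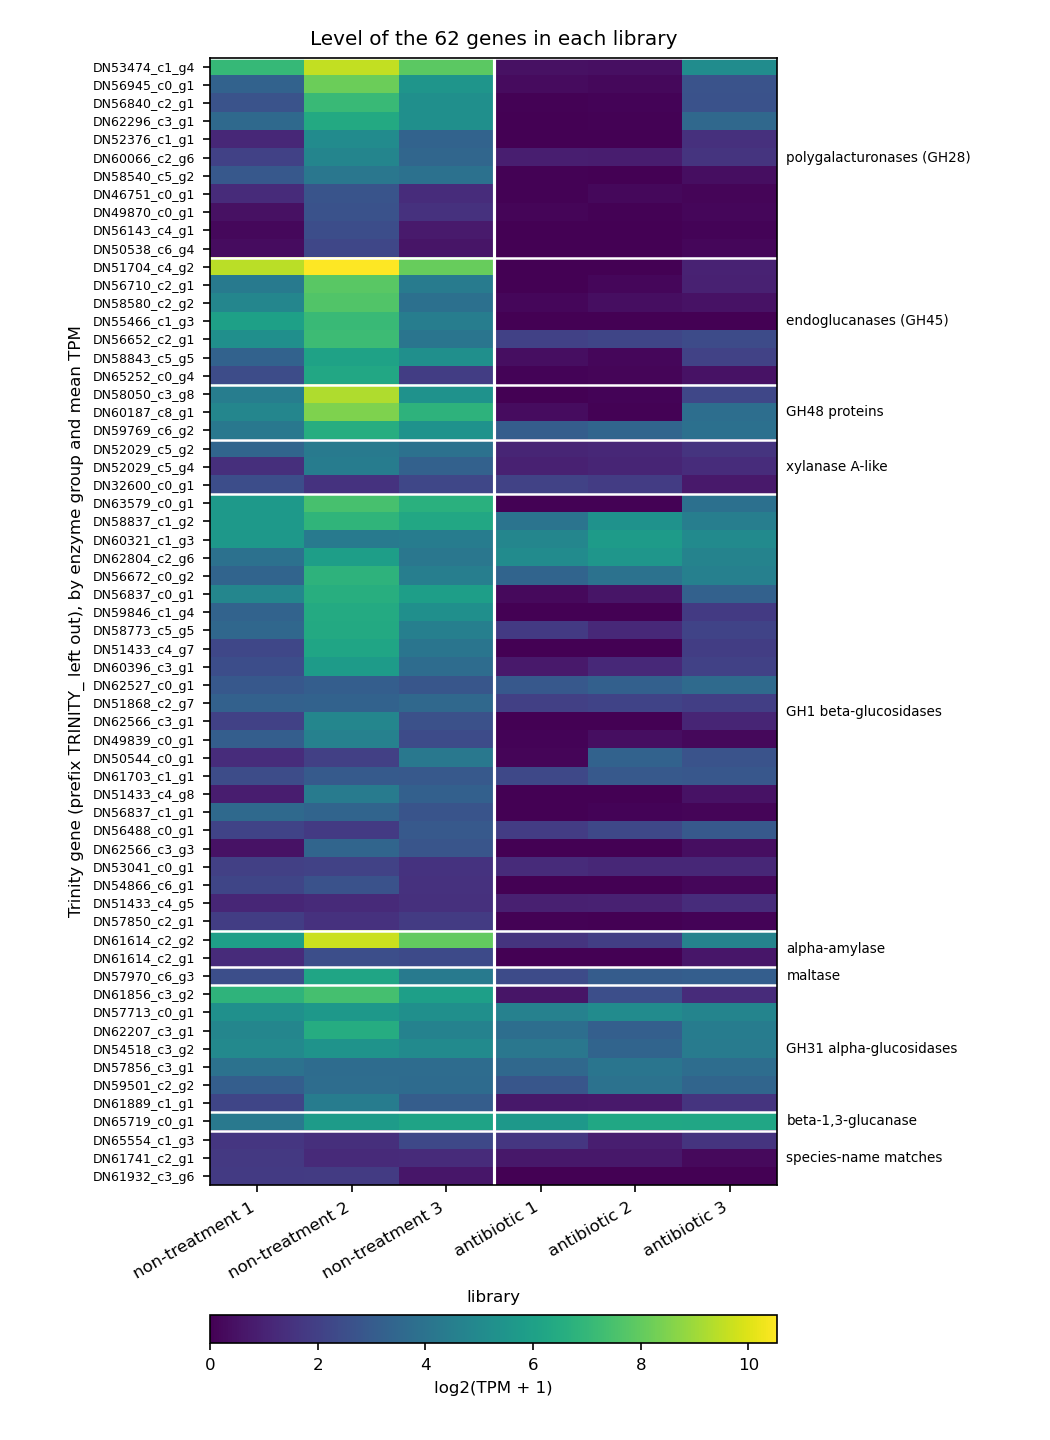
Level of each of the 62 members in each of the 6 libraries, as log2(TPM + 1), grouped by enzyme class. Dark cells are near 0 and yellow cells are the highest levels. Most GH28 and GH45 genes are green to yellow in Non-treatment replicate 2 and dark in the Antibiotic libraries.

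Among the cellulose-cutting enzymes, the GH45 endoglucanases fell in 6 of 7 genes, and the 7 genes had a median log2 difference of -5.10. Their summed level differed 195-fold, a log2 ratio of -7.61 that became -6.66 without Non-treatment replicate 2 and -8.23 without Antibiotic replicate 3. All 7 genes had every Non-treatment library above every Antibiotic library. The most abundant, TRINITY_DN51704_c4_g2, matched a CPB endo-beta-1,4-glucanase and was at 692, 1479 and 268 TPM in Non-treatment replicates 1 to 3 and at 0, 0 and 1.03 TPM in the Antibiotic replicates. It was the most abundant member of all in the Non-treatment group and almost silent in the Antibiotic group, and the counts were 16745, 36996 and 7307 against 0 and 15 in Antibiotic replicates 2 and 3. The group means were 813 ± 614 and 0.342 ± 0.592 TPM, and the log2 difference was -9.01 (SE 0.60, 95% CI -10.42 to -7.60, limma adjusted p = 0.000266).

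A further GH45 gene, TRINITY_DN55466_c1_g3, was at 61.5, 139 and 21.0 TPM in Non-treatment libraries and listed at 0 in all 3 Antibiotic libraries. It thus had no measured level in the Antibiotic group, with 0 counts in each of the 2 libraries that had counts, so no fold is given, and its fitted difference of -5.85 (SE 0.60, limma adjusted p = 0.00147) depends on the pseudocount. TRINITY_DN56710_c2_g1 was at 19.2, 228 and 19.8 TPM against 0.0269, 0.153 and 0.952 TPM, a 236-fold difference of the means (log2 -5.12, limma adjusted p = 0.0113). TRINITY_DN58580_c2_g2 was at 27.3, 203 and 13.7 TPM against 0.126, 0.32 and 0.417 TPM, a 283-fold difference (log2 -5.10, limma adjusted p = 0.00964). In both, Non-treatment replicate 2 was several times above the other replicates and the groups were far apart. The remaining genes called were TRINITY_DN56652_c2_g1, which kept 3.05 to 4.32 TPM in the Antibiotic group against 16.2 to 147 TPM (log2 -3.30, limma adjusted p = 0.0229), and TRINITY_DN58843_c5_g5 (log2 -4.00, limma adjusted p = 0.0156). TRINITY_DN65252_c0_g4, at 4.48, 78.0 and 2.74 TPM against 0.0768, 0.116 and 0.433 TPM, was not called (limma adjusted p = 0.0998). Without Antibiotic replicate 1, 4 of the 6 calls were lost, at adjusted p 0.0546 to 0.0978: those of TRINITY_DN58580_c2_g2, TRINITY_DN56710_c2_g1, TRINITY_DN58843_c5_g5 and TRINITY_DN56652_c2_g1. The last 3 of these were also lost without Antibiotic replicate 2, TRINITY_DN58843_c5_g5 without Non-treatment replicate 3 and TRINITY_DN56652_c2_g1 without Antibiotic replicate 3. Under edgeR with its count filter 3 of the 6 calls were lost, and under DESeq2 0.

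The 3 GH48 proteins carry the domain of bacterial cellobiohydrolases, while in the leaf beetle Gastrophysa atrocyanea such a protein has been described as acting on chitin. The sum of the class differed 27.6-fold, a log2 ratio of -4.79 that became -3.00 without Non-treatment replicate 2 and -5.65 without Antibiotic replicate 3, and 2 of the 3 genes fell. TRINITY_DN58050_c3_g8 was at 21.1, 626 and 40.6 TPM against 0.011, 0.0619 and 3.79 TPM (log2 -5.59, SE 1.23, limma adjusted p = 0.0275). TRINITY_DN60187_c8_g1 was at 27.4, 359 and 111 TPM against 0.278, 0.0417 and 12.9 TPM (log2 -5.31, SE 1.19, limma adjusted p = 0.0297). Both had their highest Non-treatment level in replicate 2 and their highest Antibiotic level in replicate 3, without overlap. Both calls were lost without Non-treatment replicate 3, Antibiotic replicate 1 or Antibiotic replicate 2, and under edgeR, and that of TRINITY_DN60187_c8_g1 also without Non-treatment replicate 2 and under DESeq2. TRINITY_DN59769_c6_g2 differed less, with 17.4, 93.3 and 40.04 TPM against 7.57, 9.80 and 14.0 TPM, and was not called (log2 -1.89, 95% CI -3.19 to -0.59, limma adjusted p = 0.0779).

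The GH28 polygalacturonases, which cut pectin, were low in Antibiotic replicates 1 and 2 and higher in replicate 3. Their sum was 171, 1360 and 393 TPM in Non-treatment and 1.70, 1.67 and 59.5 TPM in Antibiotic libraries. The groups did not overlap, and the means differed 30.6-fold, a log2 ratio of -4.93 that became -8.57 without Antibiotic replicate 3 and -3.75 without Non-treatment replicate 2. Of the 11 genes, 9 could be fitted and 2 of these fell, although in 8 of the 9 the groups did not overlap and the median log2 difference was -3.52. TRINITY_DN53474_c1_g4, matching a CPB endopolygalacturonase, was at 132, 750 and 237 TPM against 0.387, 0.349 and 33.7 TPM, a 32.5-fold difference (log2 -6.16, SE 1.28, 95% CI -9.15 to -3.17, limma adjusted p = 0.0216). It was the most abundant of the class in each Non-treatment library. Its counts were 3901, 27237 and 8550 against 13 and 1103 in Antibiotic replicates 2 and 3, and its call was lost without Non-treatment replicate 2 or 3 or Antibiotic replicate 1 or 2, at adjusted p 0.0635 to 0.0962. The call was also lost under edgeR with its count filter and under DESeq2.

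The other polygalacturonase called, TRINITY_DN58540_c5_g2, was at 6.42, 16.97 and 14.2 TPM against 0.0329, 0 and 0.302 TPM. Its replicates lay closer together than those of the more abundant genes, and the difference of 112-fold (log2 -3.52, SE 0.36, limma adjusted p = 0.0015) was called under every alternative. TRINITY_DN56945_c0_g1 was at 8.94, 290 and 44.5 TPM against 0.235, 0.175 and 5.43 TPM (log2 -4.59, limma adjusted p = 0.0538). TRINITY_DN56840_c2_g1 was at 5.53, 140 and 36.6 TPM against 0.0477, 0.0681 and 5.21 TPM (log2 -4.10, limma adjusted p = 0.0672). TRINITY_DN62296_c3_g1 was at 11.3, 83.3 and 36.6 TPM against 0.0273, 0.0509 and 10.7 TPM (log2 -3.86, limma adjusted p = 0.0619). In these 3 genes the means differed greatly without overlap, but the spread among replicates was as wide and the test was not passed. The lower ones, TRINITY_DN60066_c2_g6, TRINITY_DN52376_c1_g1, TRINITY_DN46751_c0_g1 and TRINITY_DN49870_c0_g1, had log2 differences of -2.33, -2.73, -1.65 and -1.43 and limma adjusted p of 0.0623, 0.124, 0.0501 and 0.155, with overlap in TRINITY_DN52376_c1_g1. TRINITY_DN56143_c4_g1 (0.177, 4.55 and 0.683 TPM against 0, 0 and 0.0826 TPM) and TRINITY_DN50538_c6_g4 (0.258, 3.77 and 0.493 TPM against 0, 0.0166 and 0.137 TPM) were too low for the fit and entered only through their Non-treatment mean, so they have no test.

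The 3 genes matching a Tribolium endo-1,4-beta-xylanase A, an enzyme type that opens the xylan of hemicellulose, were among the lower members, at sums of 16.03, 40.9 and 26.6 TPM against 5.26, 5.07 and 4.14 TPM. TRINITY_DN52029_c5_g2 was at 9.76, 18.6 and 14.1 TPM against 1.11, 1.24 and 1.98 TPM. The replicates of each group lay close together and the groups were well apart, with means of 14.2 ± 4.44 and 1.44 ± 0.469 TPM and a 9.82-fold difference (log2 -2.61, SE 0.28, limma adjusted p = 0.00182). TRINITY_DN52029_c5_g4, of the same assembly cluster, was at 1.65, 20.3 and 8.78 TPM against 0.961, 1.15 and 1.504 TPM and was not called (log2 -1.90, limma adjusted p = 0.141). TRINITY_DN32600_c0_g1 overlapped, with 4.62, 1.90 and 3.68 TPM against 3.19, 2.67 and 0.65 TPM (log2 -0.53, limma adjusted p = 0.537).

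**Figure D4:**
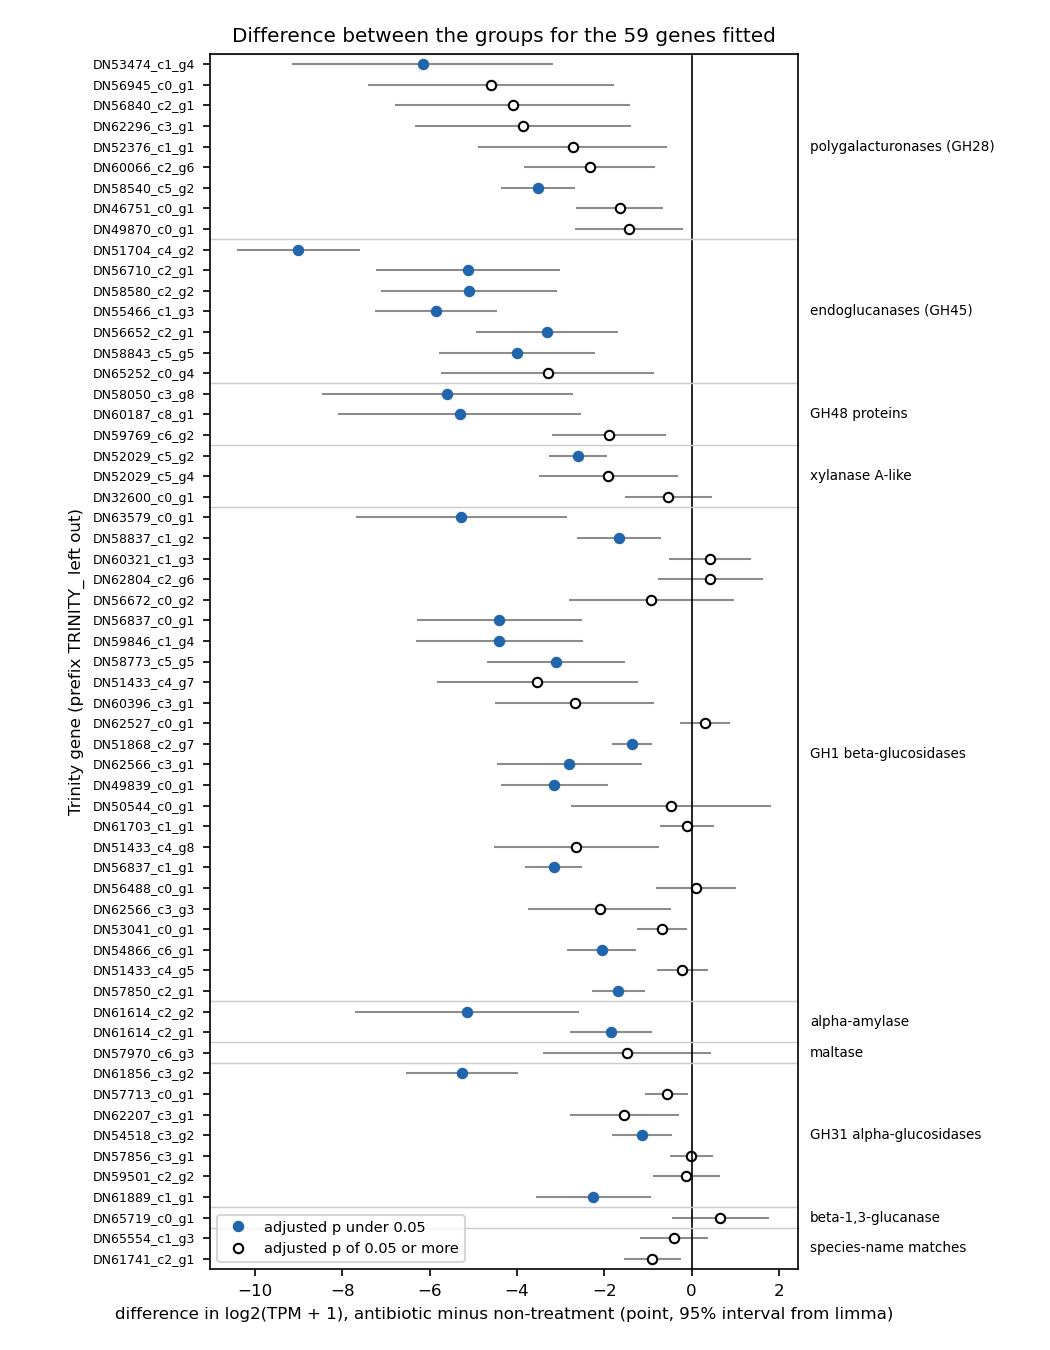
Antibiotic minus Non-treatment difference of each of the 59 fitted members, in log2(TPM + 1), with 95% confidence intervals from the limma fit, grouped by enzyme class; filled points passed an adjusted p under 0.05. The GH45 genes lie between -9.01 and -3.29, whereas 4 GH1 genes and the beta-1,3-glucanase lie above 0.

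Starch digestion was represented by 2 alpha-amylase genes and 1 maltase. Alpha-amylase cleaves starch into short chains, and both genes fell. TRINITY_DN61614_c2_g2 was at 60.9, 835 and 256 TPM against 1.97, 2.82 and 25.5 TPM, with means of 384 ± 403 and 10.1 ± 13.4 TPM and a 38.0-fold difference (log2 -5.14, SE 1.10, limma adjusted p = 0.0245). TRINITY_DN61614_c2_g1, from the same assembly cluster and matching a partial CPB alpha-amylase, was at 1.43, 4.78 and 4.14 TPM against 0, 0 and 0.552 TPM (log2 -1.85, SE 0.40, limma adjusted p = 0.0256). The groups overlapped in neither, and Antibiotic replicate 3 was the highest of its group in both. Both calls were lost without Non-treatment replicate 2 or 3 or Antibiotic replicate 1 or 2 (adjusted p 0.0642 to 0.107). Under edgeR with its count filter both were lost as well, and under DESeq2 both were kept. The log2 ratio of their sums went from -5.23 to -7.34 without Antibiotic replicate 3 and to -3.97 without Non-treatment replicate 2. Maltase splits the chains that amylase leaves. Its gene TRINITY_DN57970_c6_g3 was at 4.73, 72.9 and 18.9 TPM against 4.34, 7.32 and 7.77 TPM, with overlapping groups and no call (log2 -1.48, 95% CI -3.40 to 0.44, limma adjusted p = 0.354).

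The 24 GH1 enzymes, the largest class, were divided: 11 fell and 13 were not called, with a median log2 difference of -1.87 and no overlap in 16. Most matched Myrosinase 1 of the cabbage aphid in Swissprot, a beta-thioglucosidase that releases mustard oil from glucosinolates, but the same family holds ordinary beta-glucosidases, and which sugar these genes cut is not known from the match. Their sum was 287, 1006 and 472 TPM in Non-treatment and 107, 191 and 174 TPM in Antibiotic libraries, a 3.73-fold difference without overlap and a log2 ratio of -1.90 that became -1.27 without Non-treatment replicate 2. Among the 4 most abundant GH1 genes, 2 fell. TRINITY_DN63579_c0_g1 was at 50.7, 176 and 102 TPM against 0.0433, 0.0436 and 13.9 TPM (log2 -5.27, SE 1.03, limma adjusted p = 0.0171). TRINITY_DN58837_c1_g2 was at 50.7, 117 and 79.4 TPM against 15.7, 40.03 and 21.4 TPM (log2 -1.67, SE 0.41, limma adjusted p = 0.043). The former was nearly absent from Antibiotic replicates 1 and 2, while the latter kept a level in every library. Both calls were lost without Non-treatment replicate 2 or 3 or Antibiotic replicate 1, the former also without Antibiotic replicate 2 and the latter without Antibiotic replicate 3. Among the most abundant, TRINITY_DN60321_c1_g3 was at 47.5, 19.4 and 20.4 TPM against 27.1, 54.4 and 32.3 TPM (log2 0.43, 95% CI -0.51 to 1.37, limma adjusted p = 0.606), and TRINITY_DN62804_c2_g6 was at 14.3, 58.7 and 17.3 TPM against 32.9, 44.7 and 25.2 TPM (log2 0.43, 95% CI -0.77 to 1.63, limma adjusted p = 0.702). Both overlapped between the groups, and their intervals leave room for a rise or a fall.

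Of the lower GH1 genes, TRINITY_DN51868_c2_g7 had replicates close together in both groups. TRINITY_DN51868_c2_g7 was at 8.70, 8.997 and 10.7 TPM against 2.97, 3.39 and 2.86 TPM, with means of 9.45 ± 1.06 and 3.07 ± 0.282 TPM and a 3.08-fold difference (log2 -1.36, SE 0.20, limma adjusted p = 0.00497). TRINITY_DN56837_c1_g1 was at 11.1, 9.50 and 5.73 TPM against 0.0264, 0.0617 and 0.114 TPM, a 130-fold difference (log2 -3.15, SE 0.28, limma adjusted p = 0.000851). Its Antibiotic values were near 0, with 3 and 6 counts in Antibiotic replicates 2 and 3, so this fold is imprecise. In neither did Non-treatment replicate 2 stand above its group by a wide margin. The other genes called were TRINITY_DN56837_c0_g1 (log2 -4.40), TRINITY_DN59846_c1_g4 (-4.41), TRINITY_DN58773_c5_g5 (-3.10), TRINITY_DN62566_c3_g1 (-2.80), TRINITY_DN49839_c0_g1 (-3.14), TRINITY_DN54866_c6_g1 (-2.06) and TRINITY_DN57850_c2_g1 (-1.68), with limma adjusted p of 0.00654 to 0.0475. Without Antibiotic replicate 1, 7 of the 11 GH1 calls were lost, and 5 were lost without Antibiotic replicate 2 or without Non-treatment replicate 3. Under edgeR with its count filter 9 of the 11 were lost, and under DESeq2 3.

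The GH1 genes without a call ranged from wide to almost no difference. In TRINITY_DN51433_c4_g7, TRINITY_DN51433_c4_g8, TRINITY_DN60396_c3_g1 and TRINITY_DN62566_c3_g3 the log2 differences were -3.54, -2.64, -2.68 and -2.10, but Non-treatment replicate 2 was far above replicate 1 and the limma adjusted p was 0.065 to 0.116. The first of these was at 3.69, 72.3 and 16.03 TPM against 0, 0 and 2.74 TPM, without overlap. Some had almost equal means: TRINITY_DN61703_c1_g1 was at 4.51, 6.95 and 6.66 TPM against 3.91, 6.63 and 6.23 TPM (log2 -0.10, limma adjusted p = 0.876), and TRINITY_DN56488_c0_g1 at 3.38, 2.42 and 6.69 TPM against 2.71, 3.93 and 6.73 TPM (log2 0.10, limma adjusted p = 0.927). TRINITY_DN62527_c0_g1 was the fourth GH1 gene with a difference above 0 (log2 0.30, limma adjusted p = 0.544). TRINITY_DN53041_c0_g1 was at 3.0015, 3.27 and 1.95 TPM against 1.46, 1.24 and 1.23 TPM, without overlap (log2 -0.68, limma adjusted p = 0.142). TRINITY_DN56672_c0_g2 (-0.92), the lactase-like TRINITY_DN50544_c0_g1 (-0.46) and TRINITY_DN51433_c4_g5 (-0.21), overlapped between the groups and had limma adjusted p of 0.576 to 0.845.

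The GH31 alpha-glucosidases were also divided, and 3 of 7 fell, with a median log2 difference of -1.14. In mammals neutral alpha-glucosidase AB trims glucose from newly made glycoproteins and lysosomal alpha-glucosidase breaks down glycogen, so these names do not mark digestion. TRINITY_DN61856_c3_g2, matching neutral alpha-glucosidase C, was at 114, 170 and 60.6 TPM against 0.532, 4.77 and 1.43 TPM. The groups were far apart, with counts of 6148 to 15835 against 473 and 140, means of 115 ± 54.5 and 2.24 ± 2.23 TPM and a 51.1-fold difference (log2 -5.26, SE 0.55, limma adjusted p = 0.00154). Of the other genes with the same best name, TRINITY_DN57713_c0_g1 was at 37.8, 48.2 and 36.7 TPM against 23.4, 32.8 and 25.6 TPM, apart but not called (log2 -0.57, limma adjusted p = 0.154), and TRINITY_DN62207_c3_g1 was at 27.5, 89.9 and 24.7 TPM against 13.1, 8.10 and 20.3 TPM (log2 -1.54, limma adjusted p = 0.127). TRINITY_DN54518_c3_g2, matching a CPB family GH31 protein, had the smallest fold among the genes called, 2.21-fold, at 29.8, 41.4 and 31.5 TPM against 17.3, 9.59 and 19.6 TPM (log2 -1.14, SE 0.29, limma adjusted p = 0.0492), and leaving out any 1 library ended its call. TRINITY_DN61889_c1_g1, of the AB type, was the third gene called (log2 -2.25, limma adjusted p = 0.0447), and its call was lost without any 1 library other than Non-treatment replicate 1. The other AB gene, TRINITY_DN59501_c2_g2, and the lysosomal gene TRINITY_DN57856_c3_g1 overlapped between the groups, the latter at 14.5, 12.1 and 12.3 TPM against 10.7, 15.9 and 12.6 TPM (95% CI of the log2 difference -0.50 to 0.49, limma adjusted p = 0.996).

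The beta-1,3-glucanase TRINITY_DN65719_c0_g1 matched a Tenebrio molitor protein and, in Swissprot, a beta-1,3-glucan-binding protein, a type of immune receptor for fungal walls. It was at 18.3, 53.7 and 67.1 TPM against 47.8, 76.9 and 74.01 TPM, overlapping, with means of 46.4 ± 25.2 and 66.3 ± 16.02 TPM (log2 0.66, 95% CI -0.44 to 1.77, limma adjusted p = 0.48). It had the largest positive difference among the members, and it was not called. Of the members matched through a species name, TRINITY_DN65554_c1_g3 and TRINITY_DN61741_c2_g1 were not called (log2 -0.40 and -0.90, limma adjusted p 0.559 and 0.0928), and TRINITY_DN61932_c3_g6, at 2.49, 2.59 and 0.549 TPM against 0 in all Antibiotic libraries, was below the fit, entered only through its Non-treatment mean and has no test. Without these 3 the count stayed at 27 of 57.

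The replicates of each group differed in a way that many members shared. Non-treatment replicate 2 was the highest of its group in 47 of the 59 fitted members (79.7%), where it was the highest in 33.6% of all genes fitted. Its median log2 distance from the other Non-treatment libraries was 1.78 over the members and 0.04 over all genes. In the Antibiotic group, replicate 3 was the highest in 41 members (69.5%) against 30.03% of all genes, with a median distance of 0.45 against 0.03. The gut protease TRINITY_DN57306_c4_g1, an intestain, had the same pattern, at 145, 5628 and 584 TPM against 0, 0.137 and 45.9 TPM (log2 -7.70, SE 1.76, limma adjusted p = 0.0319). The summed gut list was highest in Non-treatment replicate 2 as well, at 8439, 20239 and 9473 TPM, but in the Antibiotic group it was highest in replicate 2 and not in replicate 3, at 4764, 8951 and 6522 TPM. The part of gut RNA in these differences was not tested. With Non-treatment replicate 2 and Antibiotic replicate 3 both left out, 25 members were called lower, 20 of them among the 27. The share of all genes called without these 2 libraries was not taken.

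**Figure D5:**
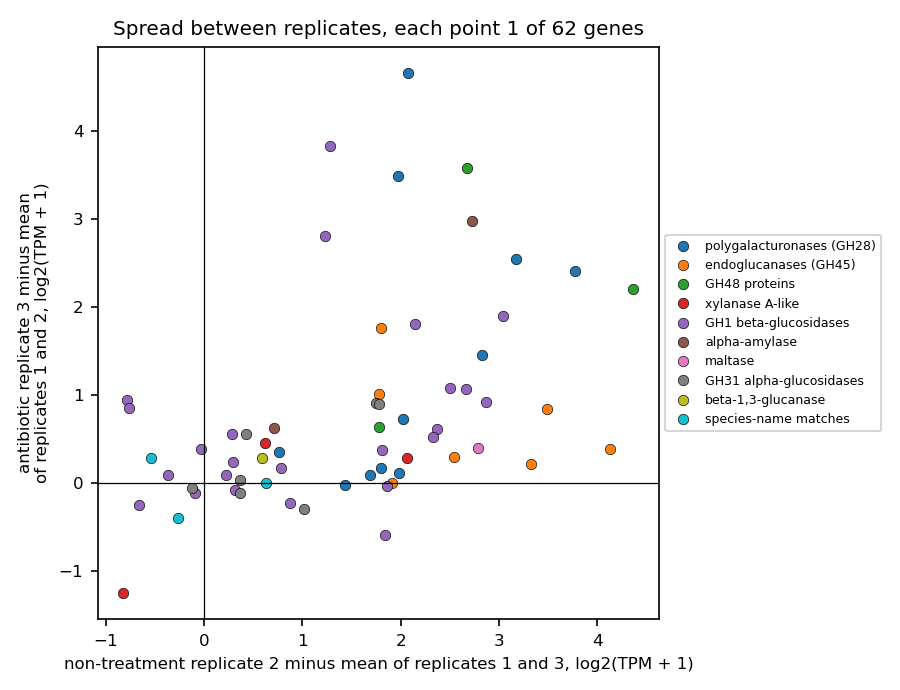
Each point is 1 of the 62 members, coloured by enzyme class, in log2(TPM + 1). The x axis is Non-treatment replicate 2 minus the mean of replicates 1 and 3, and the y axis is Antibiotic replicate 3 minus the mean of replicates 1 and 2. Most points lie to the right of 0 and above 0, with medians of 1.78 and 0.45 over the 59 fitted members.

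Detection set a limit at the low end. No member was below 3 estimated counts in a Non-treatment library, whereas 18 were in Antibiotic replicate 2 and 3 in Antibiotic replicate 3. At 0 TPM were 13 members in Antibiotic replicate 1, 13 in replicate 2 and 2 in replicate 3. The choice of members favours such a contrast. All 62 met the 1 TPM minimum by their Non-treatment mean, but only 39 by their Antibiotic mean. These counts and zeros therefore cannot show a difference in detection apart from that choice. Just inside the 1 TPM minimum were TRINITY_DN51433_c4_g5 and TRINITY_DN50538_c6_g4, with a higher group mean of 1.46 and 1.51 TPM. Just outside it were TRINITY_DN49435_c0_g1 (0.872 TPM), whose Swissprot match is an inhibitor of alpha-amylase and trypsin rather than an enzyme, and the GH1 gene TRINITY_DN60321_c1_g2 (0.811 TPM). Of the 154 matches below the minimum, 28 were at 0 in all 6 libraries, and 55 had no NR match.

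Other sugar genes were read from 2 lists and from the same fit, in which 7.68% of all genes fell and 3.17% rose. Of 88 other carbohydrate-active enzymes (trehalases, galactosidases, mannosidases, hexosaminidases and the like), 28 were fitted, 4 fell and 0 rose, with a median log2 difference of -0.36 and sums of 324 to 497 TPM against 251 to 389 TPM. Their most abundant gene, the trehalase TRINITY_DN50517_c0_g1, which splits the blood sugar of insects, was at 80.4, 74.8 and 189 TPM against 80.5, 118 and 133 TPM (log2 0.05, limma adjusted p = 0.964). The beta-galactosidase TRINITY_DN62918_c0_g1 was at 12.2, 12.3 and 34.8 TPM against 21.9, 26.9 and 69.5 TPM (log2 0.95, limma adjusted p = 0.363). Both overlapped between the groups. Of 137 sugar transporter genes, 72 were fitted, 26 fell and 2 rose, with a median of -0.70 and sums of 701 to 1011 TPM against 430 to 661 TPM. The trehalose transporter TRINITY_DN60748_c2_g1, at 58.3, 69.8 and 119 TPM against 68.2, 132 and 128 TPM, was not called (log2 0.42, limma adjusted p = 0.57), nor was TRINITY_DN53687_c7_g1 (log2 0.29, limma adjusted p = 0.535). Among 616 ribosomal protein genes, 93 were fitted, 2 fell and 0 rose, with a median of 0.06.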

How the data were processed

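RNA was extracted from CPB heads with the PureLink RNA Mini Kit and sequenced on an Illumina HiSeq. The deposited tables list genes of a transcriptome assembly with NR, Swissprot and Pfam annotation, TPM and estimated counts. The TPM values were made by the authors from fragment numbers scaled for length and library depth, by the methods with featureCounts; the submitters' processing notes name FastQC, Salmon and DESeq2, and a mouse build with no role given. The estimated counts were deposited by the authors per gene and need not be whole. Counts were not used for Antibiotic replicate 1, because its table carried those of Antibiotic replicate 2, so TPM of all 6 libraries was the main input. PCR reads without molecular identifiers are not independent molecules.

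Genes averaging 1 TPM or more over the 6 libraries, a filter that does not use the groups, were tested on log2(TPM + 1) with limma 3.58.1 (mean-variance trend, two-sided, R 4.3.3), Benjamini-Hochberg over all genes. Members below the filter are described with no test. Alternatives were pseudocounts of 0.1 and 5, other filters, median-of-ratios scaling, a total without the 50 most abundant genes, no trend, a replicate block and each library left out. Further ones were the study's cut-offs applied to the limma p, and edgeR 4.0.16 and DESeq2 1.42.0 on the rounded counts of 5 libraries. The fits were tried on simulated data with 1 dispersion for all genes and 200 genes changed by a log2 fold of 4. Without a block, limma recovered 200 of them and called 13 unchanged genes. For edgeR these numbers were 198 and 3, and for DESeq2 196 and 23. The simulation held no shift shared by many genes of 1 library, so it does not cover the replicate spread seen in the members.

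The members and all lists were chosen with earlier results of these data known. Members named with values were the 4 most abundant of each class, the 3 called members with the largest fall, and those at the TPM minimum, and of each other sugar list the 2 most abundant genes; the other members are named to account for each, and the marker genes named were chosen after their values were seen. GH45 and GH48 were parted by their Pfam name. No sequence is shown, since none was at hand for the assembled genes.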

Additional observations from a re-analysis of the deposited data

How the results depend on the processing

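No member was called higher in the Antibiotic group under any of the 22 alternatives, 20 of them planned and 2 added after the data had been seen. The count of members called lower in the limma fit, 27, became 10 with edgeR and 10 with edgeR and DESeq2's size factors. It was 48 with edgeR without its count filter. With the study's cut-offs, an unadjusted p below 0.05 and a log2 ratio above 1, applied to the limma p and the ratio of mean TPM, it was 44. The study itself took its p from DESeq2. The count ranged from 9 to 38 when 1 library was left out. Under the other alternatives it was 19 to 32, among them 29 with DESeq2. No share of all genes called was taken under the alternatives, so their counts cannot be set against a background. The replicate numbers showed no clear pairing of the libraries. The deviations of same-numbered libraries correlated at 0.148, -0.101 and 0.109. Non-treatment replicates 1 and 3 correlated best with their own number and replicate 2 did not. With so few libraries these correlations cannot exclude a pairing. A fit with the replicate block called 22 members lower.

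Leaving out 1 library moved the log2 ratio of the summed TPM between -3.62 and -2.31 for all members, -8.23 and -6.66 for GH45, -5.65 and -3.00 for GH48, -7.34 and -3.97 for amylase, -8.57 and -3.75 for GH28, -2.23 and -1.27 for GH1, -1.92 and -1.34 for GH31, and -2.81 and -2.14 for xylanase. Without Non-treatment replicate 2 and Antibiotic replicate 3 together the GH28 ratio was -7.39. The cause of these shifts was not tested.

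Of 1159 values of single members under an alternative, 932 kept their direction and side of the threshold, 143 lost a call, 58 gained one and 26 changed direction. The last concerned 6 members, 0 of them called. TRINITY_DN57856_c3_g1 was positive at 0.10 with median-of-ratios scaling, 0.016 without the 50 most abundant genes, 0.14, 0.13 and 0.15 in the 3 edgeR fits and 0.17 with DESeq2, and ran from -0.15 to 0.12 when 1 library was left out. TRINITY_DN61703_c1_g1 was at 0.53, 0.52 and 0.53 with edgeR and 0.55 with DESeq2, and ran from -0.27 to 0.10 with a library left out. TRINITY_DN59501_c2_g2 was at 0.19, 0.18 and 0.20 with edgeR and 0.21 with DESeq2, and ran from -0.40 to 0.17. TRINITY_DN50544_c0_g1 was at 0.011 with DESeq2 and ran from -1.09 to 0.49. TRINITY_DN56488_c0_g1 was at -0.44 without Non-treatment replicate 2 and Antibiotic replicate 3 and ran from -0.19 to 0.43 with 1 library left out, and TRINITY_DN56672_c0_g2 ran from -1.68 to 0.037.

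Low counts limit the low end: 18 members had fewer than 3 estimated counts in Antibiotic replicate 2, so folds against that group are imprecise. That library was the deepest of those whose counts were used, at 33613953. The depth of Antibiotic replicate 1 was not known from its TPM.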
